A study of Homo sapiens with 4 samples.

Results

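Transcripts of 10 genes were followed in FT190 cells: the S100 genes S100A4, S100A6, S100A10, S100A11, S100A13 and S100A16, and the annexin genes ANXA1, ANXA2, ANXA5 and ANXA6. They were chosen by name, as the rows of the raw count table whose gene annotation equals one of these symbols, and they are 10 of the 63241 genes in that table. All 10 passed the filter on low counts that left 18781 genes for testing. FT190 is an established human line. The labels call it an ovarian epithelial cell, and it is known to derive from secretory cells of the fallopian tube that were immortalised.

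RNA sequencing compared FT190 cells in which a short hairpin RNA targeted SMARCA4 (shSMARCA4 cells) with cells carrying the PLKO control vector, with 2 libraries in each group. SMARCA4 is an ATPase that drives SWI/SNF complexes to move nucleosomes. The labels give the genotype of both groups as WT, name 1 hairpin and list no other agent. Whether the replicates are separate cultures is not stated, so each p-value reflects only the variation among these libraries, which may be technical. Values are CPM (counts per 1e6 library counts), computed from the deposited counts with library totals scaled by trimmed means of M values (TMM). A gene is said to have risen or fallen where the quasi-likelihood test of edgeR gave an adjusted p under 0.05 (Benjamini-Hochberg, over all 18781 genes).

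S100 proteins are small calcium-binding proteins of the EF-hand type that mostly work as dimers and act by binding other proteins. Annexins bind phospholipid membranes in the presence of calcium, and several S100 dimers bind the amino-terminal tail of a particular annexin. The best known pair is S100A10 with ANXA2, which assemble at the inner face of the plasma membrane, and S100A11 with ANXA1 is another. Both families are abundant in epithelial and mesenchymal cells, where they take part in membrane repair, vesicle traffic and the link between membrane and actin.

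SMARCA4 itself was measured at 34.0 and 36.3 CPM in the shSMARCA4 libraries, against 171 and 162 CPM in the controls (log2 fold change -2.24, SE 0.052, adjusted p = 1.86e-07 by the edgeR test). Total counts were 28536665 and 27137414 in the shSMARCA4 libraries and 33641343 and 32618516 in the controls. The keratins KRT7, KRT8 and KRT18 were abundant, while EPCAM stood at 0.242 and 0.326 CPM in shSMARCA4 cells and 0.396 and 0.558 CPM in controls, and KRT19 had 11 counts over all libraries. The transcription factor PAX8, a marker of the tubal secretory lineage, stood at 63.2 and 63.5 CPM in shSMARCA4 cells, against 57.4 and 59.8 CPM in controls. CDH1, another epithelial marker, averaged 3.93 CPM over all libraries, and OVGP1, another marker of secretory tubal cells, had 26 counts. Of the fibroblast markers, COL1A1 averaged 1794 CPM, while COL1A2 and DCN had 24 and 2 counts over all libraries. Low EPCAM, KRT19 and CDH1 levels and abundant COL1A1 are thus departures from the epithelial label, while KRT7, KRT8, KRT18 and PAX8 were present.

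The promoter windows of 4 genes are shown here, because 3 of these genes fell (S100A6, S100A10 and ANXA2) and S100A11, which lies beside S100A10 on chromosome 1, did not pass the test. Each window is 300 bases from RefSeq (GRCh38.p14), 250 before the start site and 50 from it on, written 5′ to 3′ on the gene's own strand, which is the minus strand for all 4. Capitals mark the GC box (GGGCGG), the TATA box (TATAAA) and the AP-1 site (TGANTCA), searched on both strands, with matches that overlap run together.
S100A6, chr1:153535942-153536241: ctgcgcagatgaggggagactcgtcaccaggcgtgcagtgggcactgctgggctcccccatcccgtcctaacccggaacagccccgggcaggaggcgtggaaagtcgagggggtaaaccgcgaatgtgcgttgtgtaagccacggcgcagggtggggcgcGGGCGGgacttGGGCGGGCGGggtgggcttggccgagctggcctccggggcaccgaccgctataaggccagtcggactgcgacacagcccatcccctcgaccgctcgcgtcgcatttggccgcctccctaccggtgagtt
S100A10, chr1:151993810-151994109: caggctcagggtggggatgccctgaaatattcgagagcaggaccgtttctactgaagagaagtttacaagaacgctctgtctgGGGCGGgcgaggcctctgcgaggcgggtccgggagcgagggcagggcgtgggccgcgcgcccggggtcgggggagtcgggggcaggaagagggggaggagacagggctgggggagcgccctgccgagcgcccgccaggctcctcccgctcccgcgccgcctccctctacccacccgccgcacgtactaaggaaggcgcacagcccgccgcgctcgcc
ANXA2, chr15:60397937-60398236: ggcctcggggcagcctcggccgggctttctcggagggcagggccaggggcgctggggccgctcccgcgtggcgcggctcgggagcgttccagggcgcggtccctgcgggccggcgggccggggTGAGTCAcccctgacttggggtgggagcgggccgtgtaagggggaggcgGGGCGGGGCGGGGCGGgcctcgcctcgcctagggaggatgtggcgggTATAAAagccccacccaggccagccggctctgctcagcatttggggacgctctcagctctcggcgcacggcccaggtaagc
S100A11, chr1:152036955-152037254: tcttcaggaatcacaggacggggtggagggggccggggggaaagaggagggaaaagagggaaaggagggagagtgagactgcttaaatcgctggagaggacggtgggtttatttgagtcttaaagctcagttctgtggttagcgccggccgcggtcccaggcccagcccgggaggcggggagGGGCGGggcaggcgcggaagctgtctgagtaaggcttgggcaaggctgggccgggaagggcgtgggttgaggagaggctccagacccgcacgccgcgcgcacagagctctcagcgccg
The ANXA2 window held an AP-1 match at -127, a TATA match at -31 and 3 GC boxes, each overlapping the next. The S100A6 window held 3 GC boxes, the last 2 of them overlapping, and neither of the other motifs. The S100A10 and S100A11 windows each held 1 GC box and neither of the other motifs. Of the 7 motifs searched in all, the NF-kB site differed between these neighbours, with 2 matches in the S100A10 window and 0 in that of S100A11.

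Over the promoter windows of all 10 genes, a GC box was found in 7, where 44.95% of all 35116 RefSeq windows of this length hold it. Each of the 10 genes gave 1 window. The set of all windows holds more than 1 for some genes and was not limited to expressed genes. The shares of all windows are thus not those of a like set of genes. The AP-1 letters were found in 1 (ANXA2), against 7.71% of all windows. TATA letters were found in 3 (S100A4, ANXA1 and ANXA2), against 11.53% of all windows. The NF-kB letters were found in 4 (S100A4, S100A10, ANXA2 and ANXA5), against 25.59% of all windows. The TEAD letters (GGAATG) were found in S100A16 and the E-box (CACGTG) in ANXA6, where 14.03% and 7.26% of all windows hold them. The CArG box was found in 0 of the 10 windows and in 1.29% of all windows. Both genes that fell and genes that did not pass the test held GC boxes, TATA letters and NF-kB letters. The GC content of the windows ranged from 37.7% in ANXA1 to 76.3% in ANXA5, with a median of 58.7% over all windows. Where RefSeq gives several start sites, as for S100A13, S100A16 and ANXA6, the one nearest the start of the counted transcript was used. For S100A13 that site still lies 3001 bases from the counted start.

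Of the 10 genes, 7 fell with SMARCA4 depletion and 0 rose by edgeR, against 15.8% of all genes tested that fell and 13.8% that rose (29.7% in either direction). The 10 genes and the other lists were chosen with earlier results of these data known, so setting them against these shares is not an independent test. At an unadjusted p under 0.05, 8 of the 10 were lower and 0 higher in shSMARCA4 cells (share of all genes not counted). DESeq2 called 7 of the 10 lower and 0 higher, against 1930 lower and 1625 higher of all 18781 genes tested. The genes that fell were S100A6, S100A10, S100A13, S100A16, ANXA1, ANXA2 and ANXA6. Most of these genes are abundant. Among the 4672 genes that averaged 50 CPM or more, a level chosen after the values were seen, 24.4% fell and 21.3% rose (45.7% in either direction). The median log2 fold change of the 10 genes was -0.29, with a range from -0.51 to 0.02, while the median over all genes tested was -0.0045. The falls were small, between 15.4% and 25.8% of the control level. The 2 groups did not overlap in any of the 10 genes, with 9 lower and 1 higher in shSMARCA4 cells, where 33.5% of all genes tested lay wholly lower and 65.9% did not overlap in either direction.

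**Figure D1:**
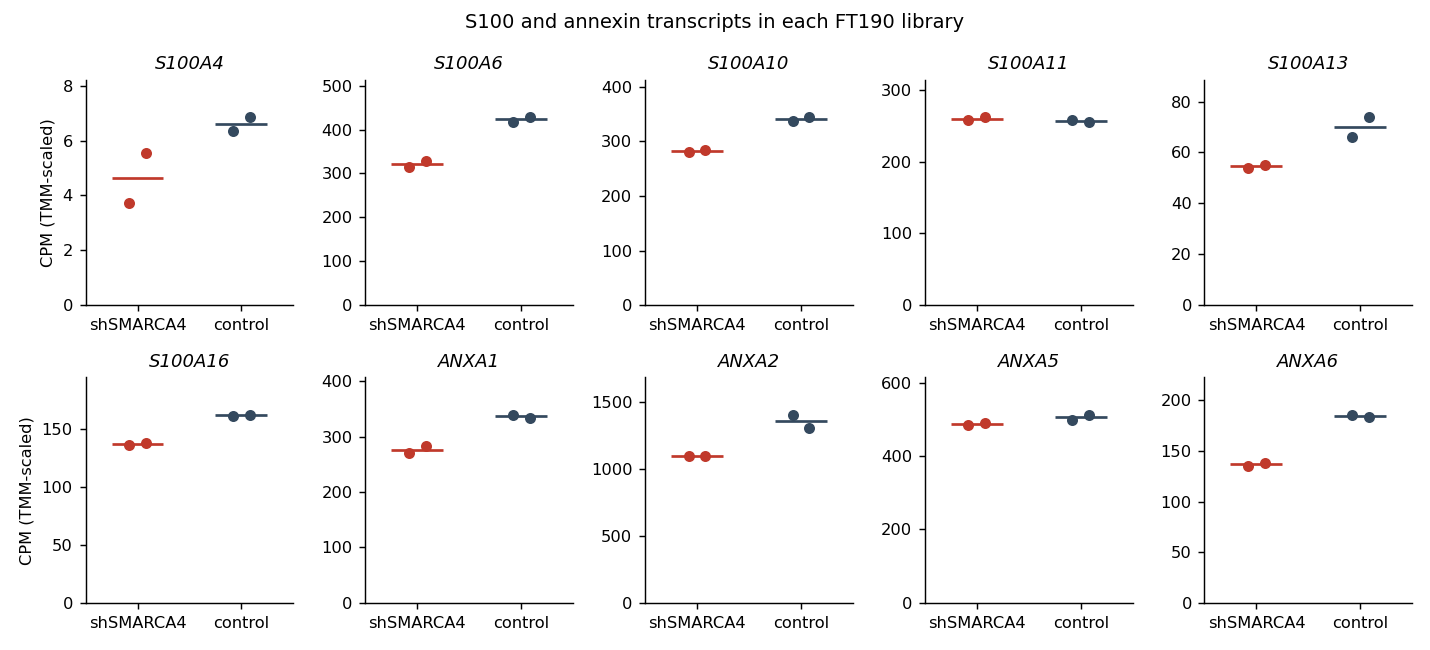
CPM (vertical axis of each panel, starting at 0) of the 10 genes in the shSMARCA4 libraries (red) and the control libraries (dark). Points are single libraries and horizontal lines are group means (n = 2 in each group). S100A6 lay at 314 and 328 CPM in shSMARCA4 cells, against 418 and 428 CPM in controls, while S100A11 stood at 258 and 262 CPM, against 258 and 255 CPM.

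S100A10 and ANXA2, which encode the subunits of one complex, both fell. ANXA2 (ENSG00000182718.18, chromosome 15, 60347144 to 60397985 on the minus strand of hg38) had 1095 and 1100.5 CPM in shSMARCA4 cells, against 1403 and 1309 CPM in controls. It was the most abundant of the 10 genes by counts, 43rd of the 18781 genes tested. It fell by 0.31 on the log2 scale (SE 0.043, adjusted p = 9.13e-04 by the edgeR test). Processed copies of ANXA2 exist elsewhere in the genome, and the 3 in the table, ANXA2P1, ANXA2P2 and ANXA2P3, held 0.658% as many counts as ANXA2 itself. ANXA2 is therefore uncertain by the reads that such copies could take or give.

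S100A10 (ENSG00000197747.9, chromosome 1, 151982915 to 151993859 on the minus strand), whose protein binds the ANXA2 tail and has lost the ability to bind calcium, had 281 and 284 CPM in shSMARCA4 cells, against 337 and 344 CPM in controls. It fell by 0.27 on the log2 scale (SE 0.038, adjusted p = 9.27e-04 by the edgeR test). The ratio of S100A10 to ANXA2, with both levels divided by the length of the counted transcript, was 0.785 and 0.791 in shSMARCA4 cells, against 0.734 and 0.805 in controls. The control libraries lay on either side of the shSMARCA4 libraries, so the ratio of the 2 transcripts overlapped between the groups.

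Among the other S100 genes of the 10, S100A6 had the largest fall past the test. S100A6 (ENSG00000197956.10, chromosome 1, 153534599 to 153536215 on the minus strand) encodes calcyclin. It had 314 and 328 CPM in shSMARCA4 cells, against 418 and 428 CPM in controls. It averaged 321 ± 10.1 CPM in shSMARCA4 cells and 423 ± 6.80 CPM in controls (SD, n = 2 each), a log2 fold change of -0.40 (SE 0.041, adjusted p = 1.66e-04 by the edgeR test). Both shSMARCA4 libraries lay below both controls. An antisense transcript, ENSG00000238279, overlaps its span by 531 bases on the plus strand and had 88 counts over all libraries, against 45676 for S100A6. The counted transcript starts 224 bases upstream of the RefSeq start site.

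S100A16 (chromosome 1, 153606886 to 153613137, minus strand), a widely expressed S100 protein, had 136 and 138 CPM in shSMARCA4 cells, against 161 and 162 CPM in controls. Its log2 fold change of -0.24 (SE 0.039) was the smallest of the 7 falls. The spread within each group was below 2 CPM.

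S100A13 (chromosome 1, 153618808 to 153631360, minus strand) encodes a protein that takes part in the release of FGF1 and IL1A outside the classical secretory route. It had 54.1 and 54.9 CPM in shSMARCA4 cells, against 66.2 and 73.8 CPM in controls, a log2 fold change of -0.36 (SE 0.059). Its counts are uncertain. The long non-coding gene ENSG00000271853 overlaps it by 5029 bases on the same strand and S100A1 by 2977 bases on the opposite strand, and the reads were counted without regard to strand. ENSG00000271853 had 40.9 and 42.4 CPM in shSMARCA4 cells, against 49.5 and 53.8 CPM in controls, and also fell (log2 fold change -0.31, SE 0.057). In GENCODE release 29 the transcript counted for S100A13 is a processed transcript that shares 906 of its 2184 exonic bases with coding transcripts of the gene.

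S100A4 and S100A11 did not pass the test, with fold changes of different size. S100A4 (chromosome 1, 153543613 to 153545097, minus strand), which binds non-muscle myosin, was the least abundant of the 10 genes, with 3.73 and 5.54 CPM in shSMARCA4 cells, against 6.34 and 6.85 CPM in controls. Both shSMARCA4 libraries lay below both controls. Its log2 fold change of -0.51 was the largest in size of the 10, but the error was wide (SE 0.17, adjusted p = 0.0515 by the edgeR test). Without shSMARCA4 library 1 the log2 fold change was -0.24, and without shSMARCA4 library 2 it was -0.82 and past the test. It also passed without control 1 (-0.56), without control 2 (-0.46), with the replicate block (-0.52) and with a 1 CPM filter (-0.51). The transcript counted for S100A4 is a processed transcript in GENCODE release 29, with 573 of its 755 exonic bases shared with coding transcripts. Its start lies 709 bases downstream of the RefSeq start site, so its level need not be that of the coding transcript.

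S100A11 (chromosome 1, 152032506 to 152037004, minus strand), the S100 protein that binds ANXA1, had 258 and 262 CPM in shSMARCA4 cells, against 258 and 255 CPM in controls. Its log2 fold change was 0.02, with a 95% interval of -0.07 to 0.11 and adjusted p = 0.728 by the edgeR test. That interval lies wholly above the interval of S100A10 (-0.35 to -0.18), the next S100 gene along the chromosome. An antisense gene, ENSG00000229021, spans S100A11 and had 23 counts over all libraries. The interval covers a single gene and is not adjusted for the number of genes.

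The annexins ANXA1 and ANXA6 fell, and ANXA5 did not pass the test. ANXA6 (ENSG00000197043.15, chromosome 5, 151100706 to 151157779, minus strand), an annexin with a duplicated core domain, had the smallest adjusted p of the 10 genes. It had 135 and 138 CPM in shSMARCA4 cells, against 185 and 183 CPM in controls. It averaged 137 ± 1.87 CPM in shSMARCA4 cells and 184 ± 1.71 CPM in controls (SD, n = 2 each), a log2 fold change of -0.43 (SE 0.040, adjusted p = 9.80e-05 by the edgeR test). ANXA1 (chromosome 9, 73151865 to 73170393, plus strand), known as an anti-inflammatory protein that signals through formyl peptide receptors, had 270 and 283 CPM in shSMARCA4 cells, against 339 and 334 CPM in controls. That was a log2 fold change of -0.28 (SE 0.041). ANXA1 fell while its partner S100A11 did not pass the test.

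ANXA5 (chromosome 4, 121667946 to 121696980, minus strand), the phosphatidylserine-binding protein used to stain dying cells, had 485 and 489 CPM in shSMARCA4 cells, against 498 and 512 CPM in controls. The log2 fold change was -0.05, with a 95% interval of -0.14 to 0.03 and adjusted p = 0.338 by the edgeR test. The interval does not reach the fitted falls of ANXA1, ANXA2 or ANXA6.

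Divided by the length of the counted transcript, control levels ran from ANXA2 (665 CPM per kb) through S100A6 (633), S100A10 (511), S100A11 (459), ANXA5 (313), ANXA1 (244), S100A16 (139), ANXA6 (64.9) and S100A13 (32.2) to S100A4 (8.77 CPM per kb). In shSMARCA4 cells S100A11 (466 CPM per kb) stood above S100A10 (424 CPM per kb), and the other genes kept the control order. No neighbours in either order overlapped between libraries, but ANXA2 and S100A6 came within 642 and 641 CPM per kb in control 2. These levels rest on the transcript chosen for each gene. In sum the 10 genes took 0.308% and 0.314% of all counts in shSMARCA4 libraries, against 0.358% and 0.357% in controls.

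**Figure D2:**
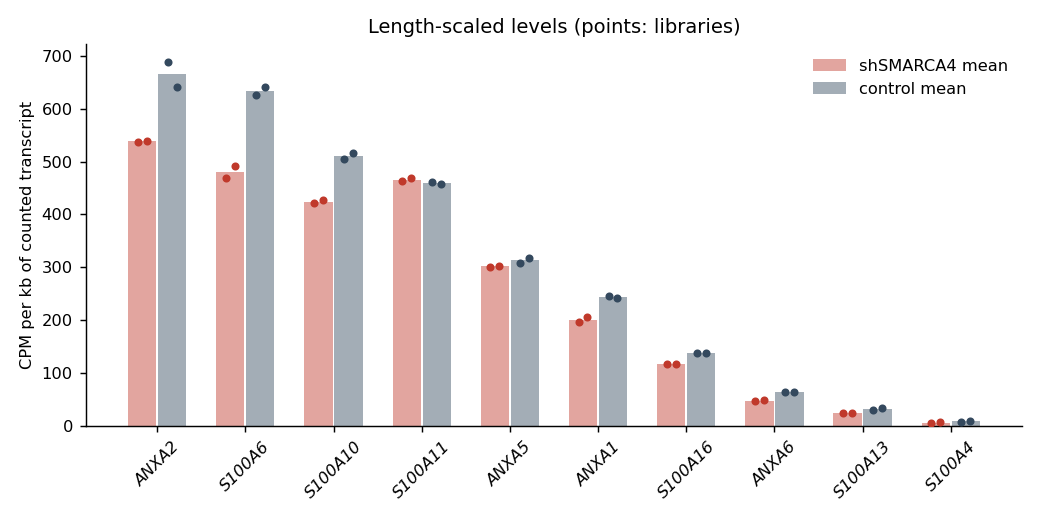
Length-scaled level (CPM per kb of the counted transcript, linear axis from 0) of each of the 10 genes, in the control order. Bars are group means and points are single libraries, shSMARCA4 in red and control in dark (n = 2 each). S100A10 stands at 424 CPM per kb in shSMARCA4 cells, against 511 in controls, and S100A11 at 466, against 459.

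Among the rest of both families, ANXA8, ANXA8L1, S100A2, ANXA11, ANXA3, S100A1 and S100A3 fell. Of 23 further S100 and annexin genes listed, 12 passed the filter, and of these 7 fell and 0 rose by edgeR, where 15.8% of all genes tested fell and 13.8% rose. At an unadjusted p under 0.05, 8 of the 12 were lower and 0 higher (share of all genes not counted). DESeq2 called 6 of the 12 lower and 0 higher, against 1930 lower and 1625 higher of all 18781 genes tested. The median log2 fold change of the 12 was -0.35. The other 11 did not pass the filter. Of these, 8 had 0 counts in every library, among them S100A7, S100A9, S100A12, S100B and S100P, and S100A14, S100A8 and ANXA13 had at most 16 counts over all libraries.

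ANXA8 and ANXA8L1, near-identical genes on chromosome 10, had the largest falls of both families. ANXA8 had 7.63 and 7.50 CPM in shSMARCA4 cells, against 19.2 and 22.1 CPM in controls, a 2.73-fold lower level (log2 fold change -1.45, SE 0.099, adjusted p = 2.23e-05 by the edgeR test). ANXA8L1 had 4.18 and 4.31 CPM in shSMARCA4 cells, against 11.6 and 12.1 CPM in controls (log2 fold change -1.48, SE 0.11). Reads could be split between these copies, so the 2 values are not independent and either level is uncertain.

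S100A2, an S100 gene of epithelial cells, had 144 and 147 CPM in shSMARCA4 cells, against 181 and 193 CPM in controls, and fell (log2 fold change -0.36, SE 0.045). ANXA11 (-0.34, SE 0.048), ANXA3 (-0.33, SE 0.075), S100A3 (-0.44, SE 0.13) and S100A1 (-1.02, SE 0.24) also fell. ANXA3 differed between the controls, at 148 and 123 CPM, and stood at 109 and 106 CPM in shSMARCA4 cells. Without control 1 its log2 fold change was -0.19, still past the test, and with no filter on low counts its call was lost. S100A3 lay near 5 CPM, and its call was lost without either shSMARCA4 library, without control 2, with library totals, with no filter or with DESeq2. S100A1 stood at 1.17 and 1.30 CPM in shSMARCA4 cells, against 2.07 and 2.94 CPM in controls, and it overlaps S100A13. In the counted transcripts of release 29 they share 207 exonic bases. ANXA4 (-0.15, SE 0.053), ANXA9 (-0.40, SE 0.24), ANXA10 (-0.26, SE 0.18), S100A5 (-0.18, SE 0.23) and ANXA7 (0.01, SE 0.040) did not pass the test.

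**Figure D3:**
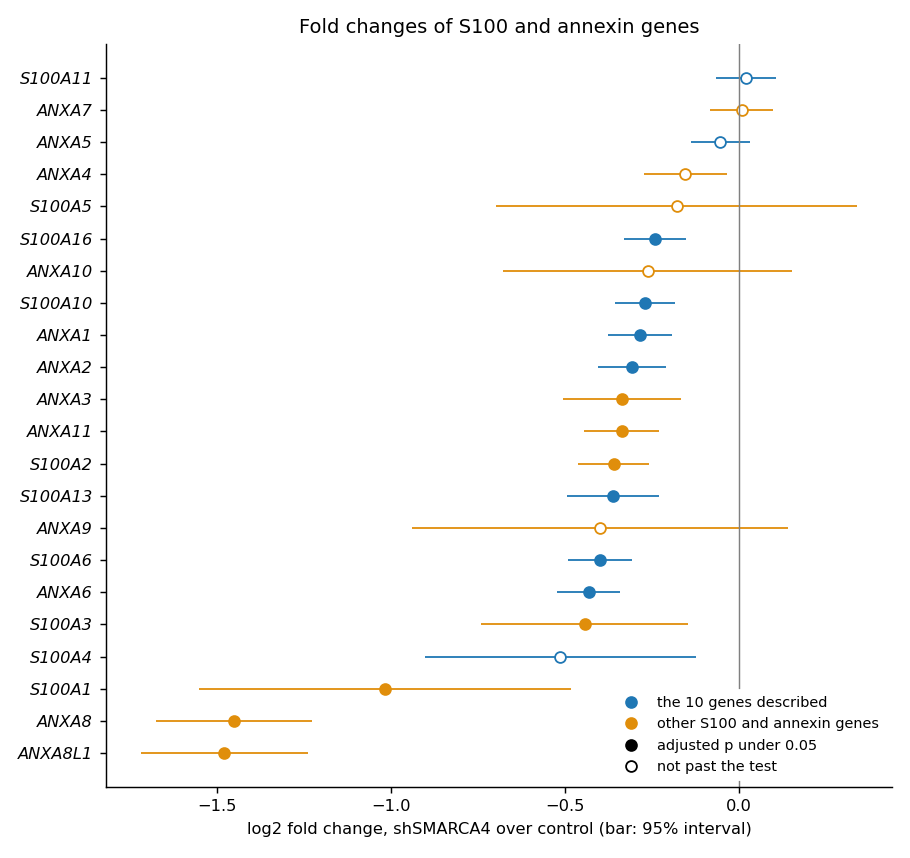
Log2 fold change of shSMARCA4 over control (horizontal axis) with its 95% interval for the 22 S100 and annexin genes tested, from 2 libraries in each group. Blue marks the 10 genes described, orange the 12 others, filled points an adjusted p under 0.05. The points run from 0.02 in S100A11 to -1.48 in ANXA8L1, and 20 of the 22 lie below 0.

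**Figure D4:**
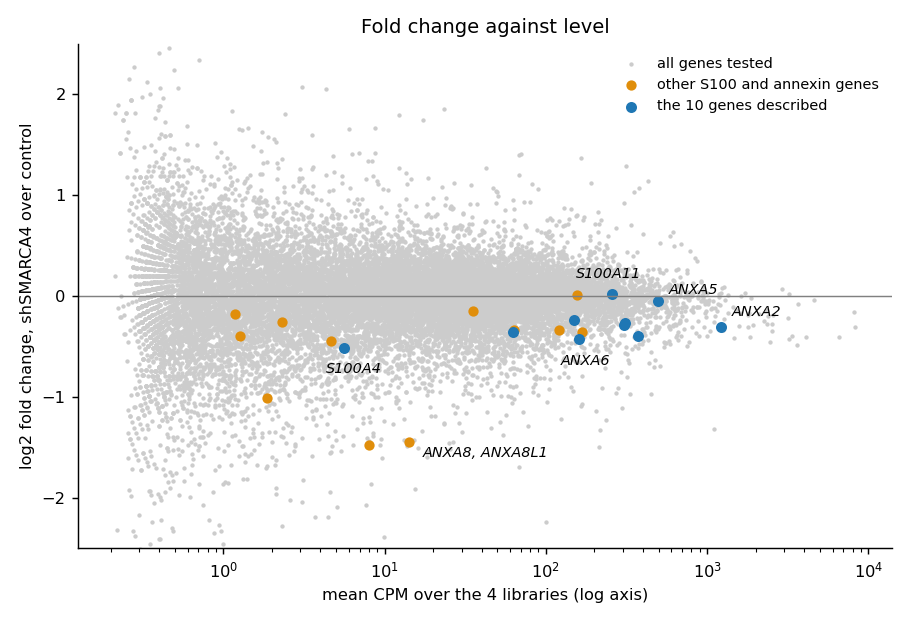
Log2 fold change of shSMARCA4 over control (vertical axis) against mean CPM over the 4 libraries (horizontal log axis). Grey points are all genes tested, blue the 10 genes described and orange the other S100 and annexin genes, and 21 genes beyond 2.5 on the vertical axis are not drawn. The blue points lie between -0.51 and 0.02.

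Of the S100 genes listed in both families, 16 lie on chromosome 1 between S100A10 and S100A1, a stretch of 1649 kb (151982915 to 153632039 on hg38) that also holds genes of skin barrier formation. Of 73 other genes that lie wholly in this stretch, 6 passed the filter. By edgeR 0 of the 6 rose and 0 fell, where 13.8% of all genes tested rose and 15.8% fell. With 6 genes, 0 calls cannot be set apart from these shares. ENSG00000271853, which runs past the end of S100A1 and fell, is not among the 6. At an unadjusted p under 0.05, 3 of the 6 were higher and 1 lower (share of all genes not counted). DESeq2 called 0 of the 6 higher and 0 lower, against 1625 higher and 1930 lower of all 18781 genes tested. The median log2 fold change of the 6 was 0.30. FLG, which encodes the skin barrier protein filaggrin and was named after its values were seen, had 287 and 274 CPM in shSMARCA4 cells, against 249 and 154 CPM in controls (log2 fold change 0.48, SE 0.17, adjusted p = 0.0584 by the edgeR test). Part of its span overlaps the antisense gene FLG-AS1, and reads there were counted without regard to strand.

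Partners of S100 proteins and annexins moved in both directions. Of 44 genes listed (binding partners, receptors, membrane repair proteins and other EF-hand proteins), 36 were tested, and 9 rose and 14 fell, where 13.8% of all genes tested rose and 15.8% fell, and 21.3% and 24.4% of genes at 50 CPM or more. Their median log2 fold change was -0.10. The 3 that rose with the smallest adjusted p were PLAU, TGM2 and PLAUR, and the 3 that fell were DYSF, TGM1 and ACTN4. PLAU, the plasminogen activator urokinase, had 258 and 266 CPM in shSMARCA4 cells, against 115 and 126 CPM in controls (log2 fold change 1.12, SE 0.051). Its receptor PLAUR (0.51, SE 0.050) and the transglutaminase TGM2 (0.83, SE 0.042) rose as well.

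DYSF, which encodes dysferlin, a protein of membrane repair that binds annexins, had 44.6 and 43.9 CPM in shSMARCA4 cells, against 62.8 and 65.4 CPM in controls (log2 fold change -0.54, SE 0.049, adjusted p = 9.03e-05 by the edgeR test). The membrane transglutaminase TGM1 fell (-1.57, SE 0.21), at 1.00 and 1.56 CPM in shSMARCA4 cells, against 3.84 and 3.75 CPM in controls. Its log2 fold change was -1.275 without shSMARCA4 library 1 and -1.919 without shSMARCA4 library 2. The actin cross-linker ACTN4 (-0.31, SE 0.049) also fell. MYH9, the non-muscle myosin bound by S100A4, fell slightly (-0.19, SE 0.057), at 2395 and 2370.4 CPM in shSMARCA4 cells, against 2892 and 2536 CPM in controls. That call was lost with library totals, with no filter and without either shSMARCA4 library, and the value was -0.09 without control 1.

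AHNAK, a very large scaffold protein bound by the S100A10 and ANXA2 complex, did not pass the test (-0.10, SE 0.071). It had 1394 and 1400.2 CPM in shSMARCA4 cells, between the controls at 1638 and 1367 CPM. Its log2 fold change was 0.04 without control 1, and -0.23 and past the test without control 2. CACYBP, the binding protein of calcyclin (S100A6), stood at -0.02 (SE 0.045) and did not pass the test, with 159 and 154 CPM in shSMARCA4 cells, against 163 and 154 CPM in controls. FPR1, a formyl peptide receptor, was at or below 0.725 CPM in every library, and FPR2 and FPR3 did not pass the filter.

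Markers of fibroblasts moved in the same direction. Of 5 fibroblast markers, COL1A1, LUM and PDGFRB were tested and all 3 fell, where 15.8% of all genes tested fell (24.4% at 50 CPM or more), while COL1A2 and DCN had 24 and 2 counts over all libraries. The summed level of the 5 was 1663 and 1789.7 CPM in shSMARCA4 cells, against 2210.5 and 2269 CPM in controls. Most of it was COL1A1, at 1540 and 1663 CPM in shSMARCA4 cells, against 1968 and 2004 CPM in controls. Of 6 epithelial markers, KRT7, KRT8 and KRT18 fell among 5 tested, against the same shares of all genes, and their summed level was 1179.8 and 1183 CPM in shSMARCA4 cells, against 1780.2 and 1673 CPM in controls. Immune markers summed to 23.5 and 25.2 CPM in shSMARCA4 cells, against 23.2 and 25.6 CPM in controls. Nearly all of it was CD68, at 22.6 and 24.3 CPM in shSMARCA4 cells, against 21.7 and 24.3 CPM in controls. CD14 fell among the 3 of 5 immune markers tested, where 15.8% of all genes tested fell. It had 3 and 3 counts in shSMARCA4 libraries, against 13 and 14 in controls (0.434 CPM or less in every library). CD3E had 1 count. Endothelial markers summed to 0.794 and 1.05 CPM in shSMARCA4 cells, against 0.915 and 1.12 CPM in controls. Ciliated markers summed to 304 and 305 CPM in shSMARCA4 cells, against 421 and 384 CPM in controls, nearly all of it TUBB4B. TUBB4B fell (log2 fold change -0.40, SE 0.048), where 15.8% of all genes tested fell. CAPS did not pass the test, and FOXJ1 had 1 count. Markers of secretory tubal cells stood higher, and summed to 81.8 and 81.7 CPM in shSMARCA4 cells, against 72.4 and 73.8 CPM in controls. Of these 3, WT1, a transcription factor of the tubal and ovarian surface lineages, rose (log2 fold change 0.35, SE 0.078, adjusted p = 0.00971 by the edgeR test), where 13.8% of all genes tested rose. PAX8 did not pass the test (0.11, SE 0.047), and OVGP1 had 26 counts over all libraries. The part of these markers in the falls of S100 and annexin transcripts was not tested, and in bulk RNA fewer cells of a type and less RNA per cell cannot be told apart.

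The genes most like ANXA6, the member with the smallest adjusted p, were sought among 10868 protein-coding genes that averaged 5 CPM or more. Likeness was the Euclidean distance between the 4 library deviations of log2(CPM + 0.5) from each gene's own mean. The nearest were PPP3CA (distance 0.0067), which encodes a catalytic subunit of the calcium-dependent phosphatase calcineurin, STAU2 (0.013), an RNA-binding protein, and EAPP (0.015). PPP3CA had 64.8 and 66.0 CPM in shSMARCA4 cells, against 89.3 and 87.7 CPM in controls. With 4 libraries in 2 groups, likeness reflects mainly the size of the difference between the groups.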

How the data were processed

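For the 4 libraries a table of raw counts was deposited, which per the file headers the authors obtained with HOMER from GENCODE release 45 exons (hg38). Reads on both strands were counted, each gene was condensed to 1 transcript, and nothing was normalized. The header names 6 libraries, of which the table has value columns for 4. STAR 2.6.1c and DESeq2 1.19.38 are named in the submitters' processing notes. Libraries were made with a SMARTER mRNA-Seq kit from total RNA, per the labels' protocols. Transcript lengths, used for CPM per kb, were also deposited in the table.

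The filter was filterByExpr (count minimum 10); 18781 of 63241 genes passed. Counts were TMM-scaled (factors 1.016 and 1.018 for shSMARCA4, 0.976 and 0.990 for control) and tested two-sided with glmQLFit and glmQLFTest of edgeR 4.0.16 under R 4.3.3. Standard errors are |log2 fold change| over the root of F, and 95% intervals use the matching t distribution. Counts of the replicates varied beyond sampling noise, with a chi-square per degree of freedom of 1.88 in shSMARCA4 and 6.33 in control libraries. With 2 libraries against 2, an exact permutation test cannot go below p = 0.33, so none was run. The test across genes was run first on simulated counts.

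The members and all gene lists were chosen with earlier results of these data known. Named genes were the 10 members, every other S100 and annexin gene tested, 6 partner genes by adjusted p, AHNAK, MYH9, CACYBP and DYSF, SMARCA4 and the genes most like the leading member. Other genes named as cell type markers, overlapping genes or low genes belong to the lists. Promoter sequences came from RefSeq (GRCh38.p14), where all 10 symbols matched. Exon structures are those of GENCODE 29, an older release than that of the counts, and it lacks the transcript counted for ANXA2. Alternatives were scaling by RLE, by the upper quartile or by library totals alone, no filter, a 1 CPM filter, protein-coding genes alone, DESeq2 1.42.0, the replicate number as a block and leaving out each library.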

Additional observations from a re-analysis of the deposited data

How the results depend on the processing

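Over 12 alternatives the 7 falls of S100A6, S100A10, S100A13, S100A16, ANXA1, ANXA2 and ANXA6 kept their direction and stayed past the test, and S100A11 and ANXA5 stayed short of it. S100A4 passed in 5 of the 12. The count of genes among the 10 that fell was 7 or 8 in every alternative and the count that rose was 0. Leaving out each library gave 7 to 8 of the 10 genes lower, 0 to 0 higher, 6 to 8 other family genes lower, 0 to 0 higher, 9 to 16 partner genes lower and 8 to 10 higher, and over all genes 2077 to 3828 lower and 1724 to 3618 higher. Without shSMARCA4 library 1, 1724 genes rose and 9 partner genes fell. A lone library left in a group was assumed to vary like the pair in the other group. With library totals alone 9 partner genes fell, and with no filter on low counts 9 did. Over all genes, no filter gave 1403 higher and 1784 lower, and DESeq2 gave 1625 higher and 1930 lower. The cause was not tested. Library totals gave 59.5% of calls as higher, against 46.6% in the main analysis, with a median log2 fold change of 0.04 over all genes and of -0.24 over the 10 genes. ANXA7, AHNAK and CACYBP changed sign. Leaving out each library gave log2 fold changes of -0.013 to 0.034 for ANXA7, -0.23 to 0.036 for AHNAK and -0.060 to 0.030 for CACYBP, and CACYBP was 0.032 with library totals alone. Of these, AHNAK passed the test without control 2 (-0.23). With the replicate block, 8 of the 10 genes fell, S100A4 being the addition, 8 other family genes fell, ANXA4 being the addition, and over all genes 3562 fell and 3187 rose. Same-numbered libraries deviated together only weakly (correlation 0.119 over 18781 genes), and with 2 pairs that share only a number this does not pair them. The 6 genes with the widest errors in both families (S100A4, S100A1, S100A3, S100A5, ANXA9 and ANXA10) all stood under 10 CPM. Of the 6, S100A1 (mean 1.87 CPM) and S100A3 (mean 4.67 CPM) still passed the test in the main analysis, as did ANXA8L1 at a mean of 8.03 CPM. The part of depth in these errors was not tested.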
